A study of Mus musculus with 8 samples.

Results

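Core histone genes were followed in mouse embryonic stem cells under 2 perturbations of chromatin. The rule took every gene symbol in both count tables that begins with Hist, a digit from 1 to 4 and h2a, h2b, h3 or h4, which gave 62 of 24421 genes. By symbol, 18 of these are H2A genes, 19 H2B, 12 H3 and 13 H4. The H2B genes include Hist3h2bb-ps, which is annotated as a processed pseudogene. By cluster, 48 belong to Hist1 on chromosome 13, 10 to Hist2 on chromosome 3, 3 to Hist3 on chromosome 11 and 1 to Hist4 on chromosome 6.

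The 8 libraries form 4 groups of 2, all from cells grown for 3 to 4 passages in 2i/LIF, which keeps stem cells naive. Ubc9-depleted cells (line v6.5), given doxycycline for 72 hours, were set against a Ubc9 control. Ubc9 is the E2 enzyme that attaches SUMO to proteins. H1 TKO cells, without the linker histone genes Hist1h1c (H1.2), Hist1h1d (H1.3) and Hist1h1e (H1.4), were set against an H1 control, and these lines came from an earlier publication. Doxycycline use in the Ubc9 control and the number of cultures behind the 2 libraries of each group are not stated by the labels, so each p-value measures only the spread between libraries, which may be technical. RNA was selected on polyA beads in both experiments, but the Ubc9 libraries used the ScriptSeq v2 kit and the H1 libraries the Lexogen SENSE V2 kit, so levels are not compared between experiments by any test.

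The core histones H2A, H2B, H3 and H4 form the protein spool around which DNA is wound in the nucleosome, and linker histone H1 binds where the DNA enters and leaves it. Most core histone genes are expressed in S phase, when newly made DNA is packed. Their mRNAs usually end at a short stem-loop that is bound by the protein Slbp, and carry no polyA tail, whereas some members also make a polyadenylated form and the replication-independent variants carry a polyA tail throughout the cycle. PolyA selection therefore retains only part of the mRNA of these genes, and a change in the level measured here may be one of mRNA amount or of the fraction with a tail, which cannot be told apart. In bulk RNA, fewer cells in S phase and less histone mRNA per cell cannot be told apart either.

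Several checks bear on the libraries. They held between 75972231 and 102780141 counts in the Ubc9 experiment and between 44441713 and 68445181 in the H1 experiment. Hist1h1c, Hist1h1d and Hist1h1e had 0 counts in both H1 TKO libraries and between 1.64 and 4.48 CPM (counts per 1e+06 counts, scaled for library composition) in the H1 controls. Ubc9-depleted library 1 stood apart: 23462 genes had a count in it, against 18584 to 19591 in the other 3 libraries of that experiment. Results are therefore also given without it. All 9 listed embryonic stem cell markers were tested in both experiments. Their summed level was 4749 and 4887 CPM in Ubc9-depleted against 5138 and 5352 CPM in control libraries (1 higher, Utf1, and 1 lower, Tfcp2l1), and 11398 and 11321 CPM in H1 TKO against 6060 and 6704 CPM in control libraries (1 higher, Tfcp2l1, and 0 lower). The median log2 fold change of the 9 was -0.0068 after Ubc9 depletion and 0.39 in H1 TKO. Single markers ranged from 76.4 to 5.42e+03 CPM in H1 TKO library 1, so that sum leans on the most abundant marker.

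Core histone genes were a small part of these libraries. Their summed level in the Ubc9 experiment was 233 and 128 CPM in the depleted libraries and 265 and 234 CPM in the controls. In the H1 experiment it was 40.7 and 46.3 CPM in the TKO libraries and 28.2 and 55.7 CPM in the controls. For comparison, the replication-independent variants, such as H3f3b (histone H3.3) and H2afz (H2A.Z), summed to between 1129 and 1363 CPM and between 1883 and 2477 CPM. The control groups differed in how well their libraries matched. The Ubc9 controls differed by a factor of 1.13 in summed core histone level, while H1 control library 1 held 0.506 times the level of H1 control library 2.

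**Figure D1:**
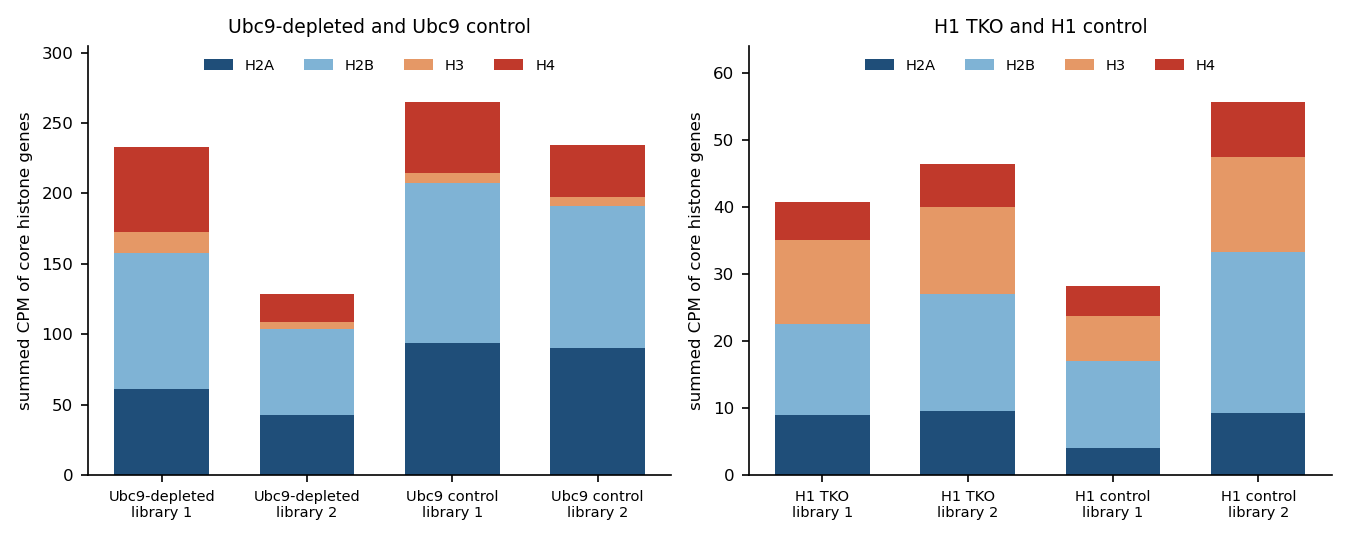
Summed level of core histone genes (CPM, vertical axis) in each library, stacked by histone type, for the Ubc9 experiment (left) and the H1 experiment (right, with its own scale). Ubc9-depleted library 2 is the lowest on the left, at 128 CPM, and H1 control library 1 the lowest on the right, at 28.2 CPM.

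The stem-loop that marks replication-dependent histone mRNAs was looked for after the stop codon in the GENCODE M21 transcripts. Of the 62 genes, 46 had at least 40 annotated bases there, and 42 of those held the stem-loop, which is a stem of 6 paired bases around a loop of 4. The 4 without it, Hist1h2bc, Hist1h2bq, Hist1h2br and Hist2h2be, held a polyA signal (AATAAA or ATTAAA), 15 held both elements and 27 the stem-loop alone. The sequences below, in capitals for the stem-loop and with 6 flanking bases on each side, are shown for 5 members that passed a test in at least 1 comparison. The stem of the H4 gene differs from that of the others, and Hist1h2bb and Hist1h3f differ from Hist3h2a and Hist3h2ba within the loop.
Hist3h2a: accaaaGGCTCTTTTCAGAGCCacccac
Hist3h2ba: cccaaaGGCTCTTTTCAGAGCCaccttc
Hist1h2bb: cccaaaGGCTCTTTTAAGAGCCacccac
Hist1h3f: caaaacGGCTCTTTTAAGAGCCacctcc
Hist1h4c: acaaaaGGCCCTTTTCAGGGCCacccac
The annotated transcript ran on for another 1643 bases after the stem-loop in Hist3h2a, 169 in Hist3h2ba and 454 in Hist1h4c, but only 23 in Hist1h2bb. Which ends were used in these libraries was not analysed here.

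Not every member could be counted. In the Ubc9 experiment 6 members had 0 counts in every library (Hist1h2ap, Hist1h2bq, Hist1h2br, Hist1h4m, Hist2h2aa1 and Hist2h3c2), and in the H1 experiment 11 did, namely those 6 with Hist1h2aa, Hist1h2ao, Hist1h2ba, Hist2h2aa2 and Hist2h3c1. A count of 0 allows up to 3 counts, or 0.0292 to 0.0395 CPM in a Ubc9 library and 0.0438 to 0.0675 CPM in an H1 library. These limits use library totals alone, without scaling for library composition. Several of these genes are copies of others. Hist1h2ao and Hist1h2ap, Hist2h2aa1 and Hist2h2aa2, Hist1h2bq and Hist1h2br, and Hist1h4m and Hist1h4n have identical coding sequences. In the Ubc9 experiment the median share of a transcript's 50-base windows found in other genes was 91.4% for members without a count and 46.4% for those with counts. In the H1 experiment these medians were 89.8% and 47.0%. Hist1h2aa, Hist2h3c1 and Hist1h2ba, without a count there, were at 2.35%, 34.7% and 38.2%. Although a copy, Hist1h4n had 136 and 51 counts in the Ubc9-depleted libraries and 71 and 55 in the Ubc9 controls. How reads that match several copies were treated is not given in the sources used here, so values of such members are uncertain. The filter on low counts left 50 members in the Ubc9 fit and 44 in the H1 fit. Hist1h2aa and Hist1h2ba, which are known for their use in the male germ line, were at most at 0.2197 and 0.157 CPM in the Ubc9 libraries.

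**Figure D2:**
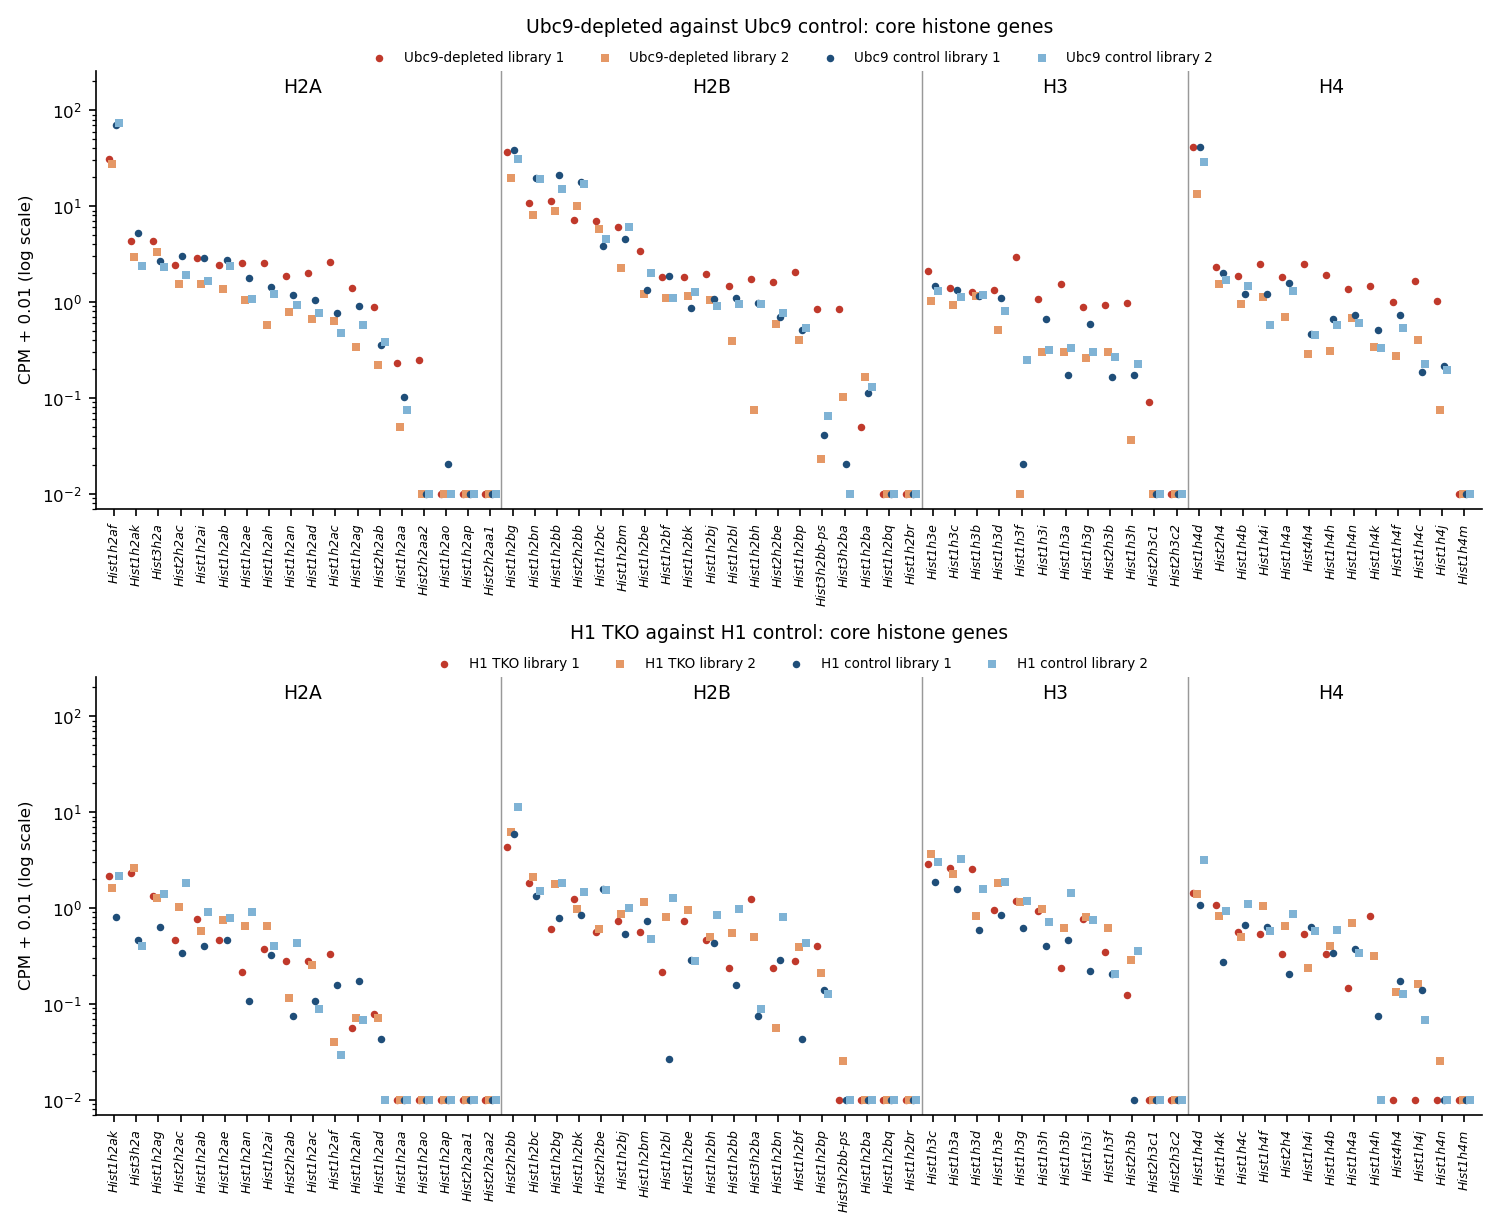
Level of every core histone gene in every library (CPM + 0.01, log scale), grouped by histone type and ordered by mean level, for the Ubc9 experiment (top) and the H1 experiment (bottom). Points are single libraries and genes with 0 counts lie at 0.01, and in the top panel Ubc9-depleted library 1 lies above library 2 for 53 members.

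Levels differed by orders of magnitude between members, and were more concentrated in few genes in the Ubc9 than in the H1 experiment. In the Ubc9 experiment 6 genes, Hist1h2af, Hist1h2bg, Hist1h4d, Hist1h2bn, Hist1h2bb and Hist2h2bb, held 71.9% of the mean core histone CPM, and only these 6 had a mean of at least 10 CPM. Per kb of annotated exon, the highest level of each type belonged to Hist1h2af for H2A (127 CPM per kb), Hist1h2bg for H2B (50.8), Hist1h3b for H3 (1.91) and Hist1h4d for H4 (27.5). In the H1 experiment the 6 highest, Hist2h2bb, Hist1h3c, Hist1h3a, Hist1h4d, Hist1h2bc and Hist1h2ak, held 40.5%. No member reached a mean of 10 CPM there, and the highest per kb were Hist1h2ak for H2A (4.27 CPM per kb), Hist2h2bb for H2B (18.2), Hist1h3a for H3 (4.513, with Hist1h3c next at 4.509) and Hist1h4k for H4 (2.48). Next in the Ubc9 experiment came Hist1h2ak (9.43), Hist1h2bn (37.9), Hist1h3c (1.89) and Hist1h4b (3.43 CPM per kb), and in the H1 experiment Hist1h2ag (2.37), Hist1h2bk (2.37) and Hist1h4f (1.77 CPM per kb). This order depends on the gene model: with RefSeq spans Hist1h4d stood first among H4 genes in the H1 libraries, with Hist1h4k next. Other second places changed as well with RefSeq spans. Hist2h4 took the place of Hist1h4b in the Ubc9 experiment. In the H1 experiment Hist3h2a took that of Hist1h2ag, and Hist1h2bg that of Hist1h2bk. The H3 neighbours Hist1h3b and Hist1h3c in the Ubc9 experiment, and Hist1h3a and Hist1h3c in the H1 experiment, changed places with RefSeq spans. The most abundant member of the Ubc9 experiment, Hist1h2af, had 14 and 2 counts in the H1 TKO libraries and 9 and 1 in the H1 controls. Cell line and kit differ between the experiments and cannot be told apart.

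After Ubc9 depletion, 3 of the 50 core histone genes tested were higher and 4 were lower (edgeR quasi-likelihood test, Benjamini-Hochberg adjusted p below 0.05 over all genes). Among all 16499 genes tested 21.1% were called higher and 15.0% lower, so both shares were lower among the core histone genes, at 6.0% and 8.0%. The tested members had a median level of 1.19 CPM, and 21 of the 50 had a mean below 1 CPM. The parts of low level and of the spread between the depleted libraries in these shares were not tested. Both depleted libraries lay above both controls for 4 of the 50 members and below both for 4, beside 36.7% and 32.2% of all genes. The 4 that fell were among the 6 most abundant, and comprised 1 H2A gene and 3 H2B genes. The 3 called higher were 1 H2B, 1 H3 and 1 H4 gene, and the calls of the latter pair were lost or turned without Ubc9-depleted library 1. DESeq2 and 1 fit of all 8 libraries each called none of these 3, and 1 other, Hist3h2ba, higher. Of all genes, these fits called 2759 of 18990 and 1100 of 16974 higher. The median log2 fold change of the tested core histone genes was 0.28, beside 0.06 for all genes tested. With no filter on low counts it was 0.31 over 56 members, beside 0.47 for all genes.

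Hist1h2af, an H2A gene, was measured at 30.7 and 27.7 CPM in the depleted libraries and at 69.6 and 74.2 CPM in the controls. The groups did not overlap, and the control mean was 2.46 times the depleted mean. Its log2 fold change was -1.30 ± 0.12 (SE, adjusted p = 3.29e-10, edgeR). This gene lies at chr13:23533906-23534304 on the + strand (GRCm38) as a single exon, and 79.7% of its 50-base windows occur in other genes.

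The 3 H2B genes that fell did so by similar amounts. Hist1h2bn was measured at 10.7 and 8.13 CPM in the depleted libraries against 19.7 and 19.3 CPM in the controls, a log2 fold change of -1.04 ± 0.12 (SE, adjusted p = 7.34e-08, edgeR). Hist2h2bb, the one member of the Hist2 cluster that was called, was measured at 7.22 and 9.99 CPM against 18.1 and 17.0 CPM, a log2 fold change of -1.03 ± 0.13 (SE, adjusted p = 3.11e-07, edgeR). Hist1h2bb was measured at 11.4 and 8.88 CPM against 20.99 and 15.0 CPM, a log2 fold change of -0.83 ± 0.14 (SE, adjusted p = 2.24e-05, edgeR). In each of the 3 both depleted libraries lay below both controls. Genes whose exons overlap a member were left out of the search for shared windows. Hist2h2bb overlaps Gm42743 on the same strand and Gm20628 on the other. Of its 50-base windows 0% occur in the remaining genes, against 86.4% for Hist1h2bn and 40.1% for Hist1h2bb. Reads shared with the overlapping genes are not covered by this value, and any part of shared sequence in the fall was not tested. With all 8 libraries in 1 fit, Hist1h2af alone of the 4 genes that fell stayed below the threshold.

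The remaining 2 of the abundant genes differed between the depleted libraries. Hist1h2bg, an H2B gene, was measured at 36.6 and 19.9 CPM in depleted libraries 1 and 2 against 38.3 and 30.7 CPM in the controls (log2 fold change -0.28 ± 0.16, SE, adjusted p = 0.1745, edgeR). Hist1h4d, an H4 gene, was measured at 40.9 and 13.4 CPM against 41.6 and 29.0 CPM (log2 fold change -0.37 ± 0.24, SE, adjusted p = 0.232, edgeR). In both, library 2 lay below both controls and library 1 lay within their range. Both were called lower with no filter, with the replicate block, without depleted library 1 and without control library 2. Summed over the 6 abundant genes, the level was 138 and 88.0 CPM in the depleted libraries and 208 and 185 CPM in the controls. The other 56 members summed to 95.0 and 40.4 CPM against 57.1 and 49.1 CPM, so that library 1 lay above and library 2 below both controls.

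Hist1h2bc, an H2B gene whose annotated transcript has a polyA signal and no stem-loop, was the called higher gene with the closest libraries. It was measured at 6.94 and 5.74 CPM in the depleted libraries and at 3.84 and 4.51 CPM in the controls, a log2 fold change of 0.60 ± 0.19 (SE, adjusted p = 0.0159, edgeR). The groups did not overlap. The call was lost with DESeq2 (adjusted p = 0.182), with all 8 libraries in 1 fit (0.182) and without control library 1 (0.3599) or 2 (0.127), with log2 fold changes from 0.47 to 0.69 in these fits.

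Hist1h4c and Hist1h3f were highest in Ubc9-depleted library 1. Hist1h4c, an H4 gene, was measured at 1.65 and 0.393 CPM in the depleted libraries and at 0.175 and 0.217 CPM in the controls, without overlap, a log2 fold change of 2.38 ± 0.83 (SE, adjusted p = 0.0261, edgeR). Without library 1 its log2 fold change was 0.99 (adjusted p = 0.228), and the call was also lost without control library 1 (0.4723) or 2 (0.4387), with DESeq2 (0.0616), and with the other settings run save RLE factors and leaving out depleted library 2. Hist1h3f, an H3 gene, had 295 and 0 counts in the depleted libraries and 1 and 22 in the controls, so the groups overlapped, although the fit called it higher at 3.56 ± 1.21 (log2 fold change, SE, adjusted p = 0.0228, edgeR). Without library 1 the fitted value was -6.46 (adjusted p = 0.0249), which rests on the 0 counts of library 2 and depends on the prior count. For Hist1h3f no direction is therefore given.

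**Figure D3:**
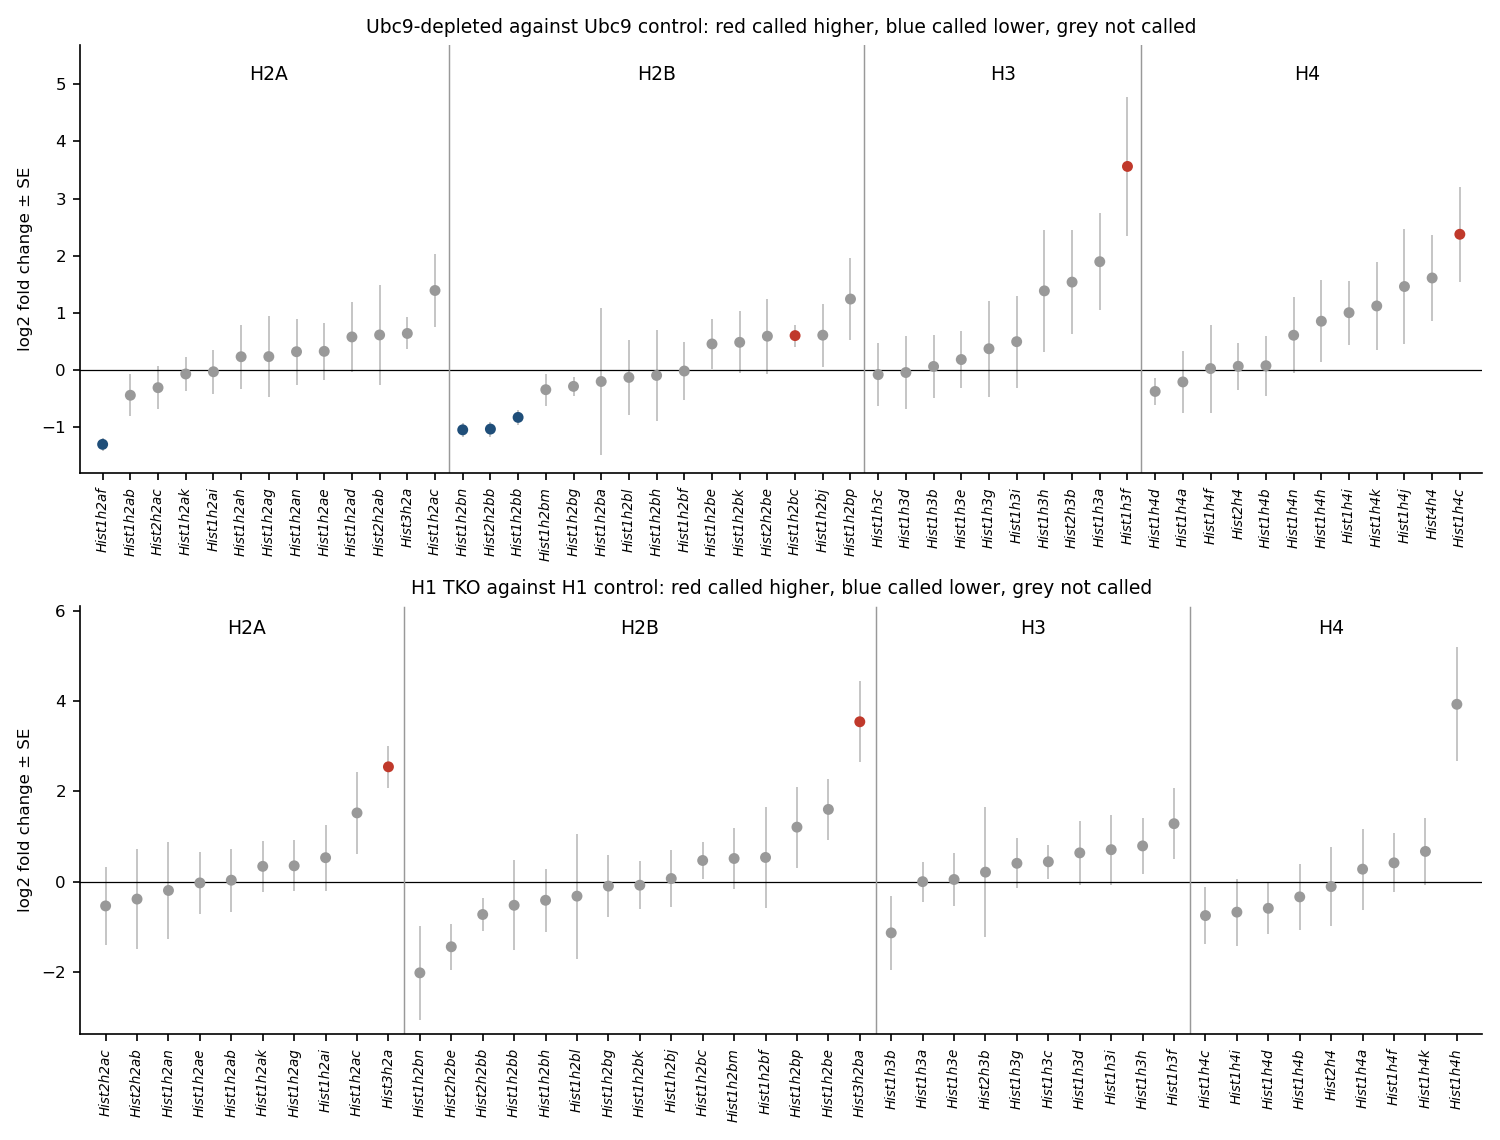
Log2 fold change (vertical axis, with its SE as bars) of each core histone gene tested, grouped by histone type and ordered by value, for Ubc9-depleted against control (top, 50 genes) and H1 TKO against control (bottom, 44 genes). Genes past an adjusted p of 0.05 are coloured: 3 red and 4 blue points at the top, 2 red points at the bottom.

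Ubc9-depleted library 1 had higher measured core histone levels than library 2 across nearly the whole family. It was higher in 48 of the 50 tested members (96.0%), with a median ratio of 2.64, whereas it was higher in 52.9% of all genes tested, with a median ratio of 1.02. By type, the summed level in library 1 was 1.44 times that in library 2 for H2A, 1.58 times for H2B, 3.08 times for H3 and 3.01 times for H4. The variants went the other way, at 1129 and 1256 CPM in libraries 1 and 2. Of the 5909 genes that had no more than 1 count in either Ubc9 control, 86.6% had a count in library 1 and 29.5% in library 2. The median gain in library 1 over library 2 was 0.0647 CPM per kb for those genes and 1.89 CPM per kb for the core histone genes tested. What sets library 1 apart was not tested.

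The number of core histone genes called depended on which depleted library was kept. Without library 1, 1 was higher and 14 were lower of 50 tested, with a median log2 fold change of -0.53, while 19.0% of all genes were called higher and 15.3% lower. The 14 included the 4 above, Hist1h2bg (-0.80) and Hist1h4d (-1.40). Without library 2, 28 were higher and 4 lower of 54 tested, with a median of 0.76, beside 41.8% and 22.9% of all genes. Hist1h2af, Hist1h2bb, Hist1h2bn and Hist2h2bb were among the lower genes in both of these fits and in the full one. They were the whole lower set without library 2 and in the full fit, but not without library 1. In these fits the lone depleted library is assumed to vary like the controls.

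By histone type, the H3 and H4 genes showed the largest differences between the depleted libraries. H3 genes summed to 14.5 and 4.71 CPM in the depleted libraries and 6.75 and 6.01 CPM in the controls, and 1 of 10 tested was called higher and 0 lower. H4 genes summed to 60.2 and 19.99 CPM against 51.0 and 36.9 CPM, and 1 of 12 was called higher and 0 lower. In both types the depleted libraries lay on either side of the controls. H2A genes summed to 61.4 and 42.7 CPM against 93.6 and 90.2 CPM, and H2B genes to 96.5 and 61.1 CPM against 114 and 101 CPM, so that in these types both depleted libraries lay below both controls. The H2A sum was mostly Hist1h2af, and the H2B sum mostly Hist1h2bg, Hist1h2bn, Hist1h2bb and Hist2h2bb. The median log2 fold change of the tested members was 0.24 for H2A, -0.09 for H2B, 0.44 for H3 and 0.73 for H4. The lower H2A and H2B sums therefore describe a few abundant genes and not each type as a whole.

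The smaller clusters had low levels. In the Hist3 cluster, Hist3h2a was measured at 4.36 and 3.35 CPM in the depleted libraries and 2.65 and 2.30 CPM in the Ubc9 controls (log2 fold change 0.64 ± 0.28, SE, adjusted p = 0.0724, edgeR), without overlap between groups. Its neighbour Hist3h2ba had 83 and 7 counts against 1 and 0, and did not pass the filter. Hist3h2bb-ps, annotated as a processed pseudogene, was measured at 0.839 and 0.0131 CPM against 0.0309 and 0.0543 CPM. Hist4h4, the only member on chromosome 6, was measured at 2.47 and 0.275 CPM against 0.453 and 0.445 CPM, with library 1 above and library 2 below both controls.

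In the H1 experiment 2 of the 44 core histone genes tested were higher in H1 TKO and 0 were lower, beside 8.59% and 8.43% of all 14800 genes tested (edgeR quasi-likelihood test). DESeq2 called 3 higher and 0 lower, beside 1656 and 1678 of all 16534 genes. An unadjusted p below 0.05 in edgeR was found for 5 members, and no share of all genes is given beside this count. Both genes that rose, Hist3h2a and Hist3h2ba, lie in the Hist3 cluster on chromosome 11. None of the 36 tested members of the Hist1 cluster, which holds the deleted linker histone genes, was called in this fit. Hist1h4h, an H4 gene of that cluster at 0.822 and 0.305 CPM in TKO against 0.0657 and 0 CPM in control libraries, missed the threshold (adjusted p = 0.0755, edgeR) but was called higher by DESeq2, with the replicate block and with all 8 libraries in 1 fit. The 8-library fit also called Hist1h2bn lower. The median log2 fold change was 0.14 for the core histone genes tested and -0.02 for all genes tested. Without overlap between groups, 10 of 44 (22.7%) were higher and 4 (9.09%) lower, beside 31.4% and 30.6% of all genes.

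Hist3h2a, an H2A gene, was measured at 2.33 and 2.64 CPM in the TKO libraries and at 0.4597 and 0.388 CPM in the H1 controls. The TKO mean was 5.86 times the control mean, and its log2 fold change was 2.54 ± 0.47 (SE, adjusted p = 0.0117, edgeR). Hist3h2ba, an H2B gene, was measured at 1.23 and 0.488 CPM in the TKO libraries and at 0.0657 and 0.0776 CPM in the controls, a log2 fold change of 3.54 ± 0.89 (SE, adjusted p = 0.0359, edgeR). Behind the latter were 54 and 32 counts against 4 and 4. The groups did not overlap for either gene. Hist3h2a was not called without TKO library 2 (adjusted p = 0.0753), and Hist3h2ba was not called without TKO library 1 (0.531) or 2 (0.0576) or with all 8 libraries in 1 fit (0.0717). In each of these fits the log2 fold change stayed above 2.

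Hist3h2a lies at chr11:58954685-58956830 and Hist3h2ba at chr11:58948920-58949533, both on the + strand of GRCm38 and each a single exon. The annotation of Hist3h2a overlaps Trim17 on the same strand and Gm44313 on the other, and whether counting used strand is not given in the sources used here. Of their 50-base windows, 2.003% and 22.1% occur in other genes. Of the third member of the cluster, Hist3h2bb-ps, 1 count was found in the 4 H1 libraries.

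**Figure D4:**
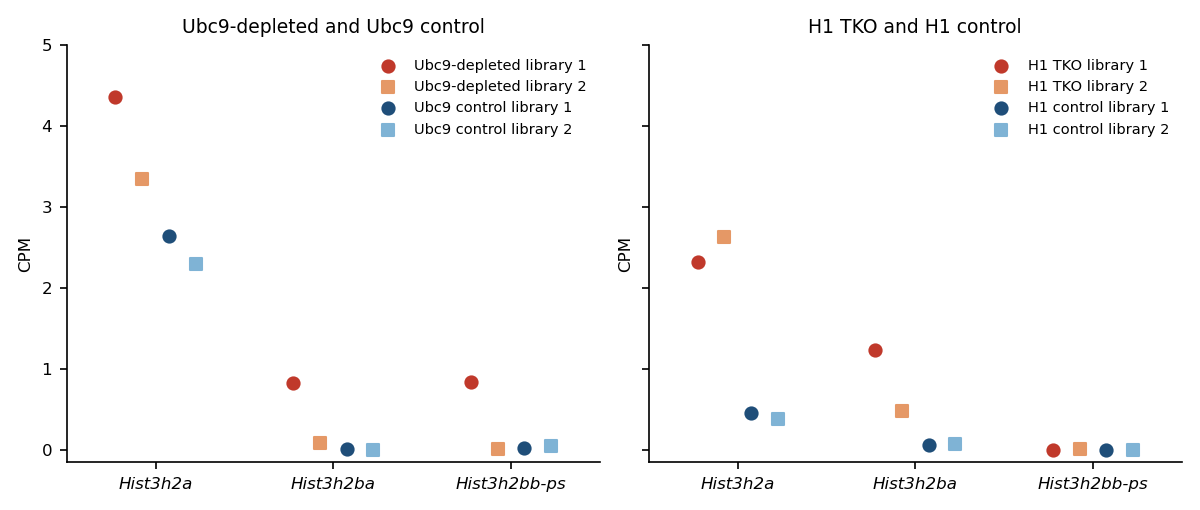
Level (CPM) of the 3 genes of the Hist3 cluster in each library of the Ubc9 experiment (left) and the H1 experiment (right), on a shared axis, with points for single libraries. Both H1 TKO libraries lie above both H1 controls for Hist3h2a and Hist3h2ba, while Hist3h2bb-ps lies near 0 there.

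The upstream sequences of these genes are shown because both genes rose in H1 TKO, beside those of 2 genes that fell after Ubc9 depletion. RefSeq (GRCm38.p6) gave a promoter, from 250 bases before to 50 after the start, for 56 of the 62 genes (57 promoters, against 32851 in the table). A total of 3 motifs were searched on both strands: CCAAT, the box bound by NF-Y, TATAAA, a form of the TATA box, and ATTTGCAT, the octamer bound by the POU factors Oct1 and Oct4. CCAAT was found in 84.2% of core histone promoters and 37.4% of all, TATAAA in 54.4% and 13.6%, and ATTTGCAT in 24.6% and 1.74%. CCAAT was in 100% of H2A, H2B and H3 promoters and in 3 of the 12 of H4. The octamer was in 38.9% of H2A and 41.2% of H2B promoters and in 0% of those of H3 and H4. Below are the 250 bases before the start, 5′ to 3′ on the + strand of each gene, with these motifs on either strand in capitals.
Hist3h2a (chr11:58954435-58954684): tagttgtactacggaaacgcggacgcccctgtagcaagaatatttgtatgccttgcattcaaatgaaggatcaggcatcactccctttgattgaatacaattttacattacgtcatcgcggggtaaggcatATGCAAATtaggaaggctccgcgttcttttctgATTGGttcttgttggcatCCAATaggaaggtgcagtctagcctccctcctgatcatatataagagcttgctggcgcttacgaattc
Hist3h2ba (chr11:58948661-58948910): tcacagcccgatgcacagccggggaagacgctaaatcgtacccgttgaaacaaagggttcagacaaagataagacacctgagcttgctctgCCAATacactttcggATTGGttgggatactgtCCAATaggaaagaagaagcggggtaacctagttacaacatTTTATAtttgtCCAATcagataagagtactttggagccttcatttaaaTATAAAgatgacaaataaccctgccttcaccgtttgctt
Hist1h2af (chr13:23533625-23533874): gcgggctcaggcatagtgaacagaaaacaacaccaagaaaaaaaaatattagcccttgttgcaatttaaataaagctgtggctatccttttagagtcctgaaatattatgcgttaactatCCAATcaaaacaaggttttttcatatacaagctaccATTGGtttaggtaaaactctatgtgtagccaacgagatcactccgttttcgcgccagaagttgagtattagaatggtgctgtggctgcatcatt
Hist2h2bb (chr3:96269450-96269699): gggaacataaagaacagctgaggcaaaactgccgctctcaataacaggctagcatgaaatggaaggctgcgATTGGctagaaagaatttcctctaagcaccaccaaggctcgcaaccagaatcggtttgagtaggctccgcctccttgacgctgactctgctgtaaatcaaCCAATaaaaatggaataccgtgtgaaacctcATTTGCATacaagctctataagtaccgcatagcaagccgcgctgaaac
All 4 held CCAAT or its reverse, and the octamer was in those of Hist3h2a and Hist2h2bb, genes that were called in opposite directions in different experiments. A match describes the letters only.

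Members of the Hist1 cluster near the deleted genes were looked at on their own. Hist1h1d, Hist1h1e and Hist1h1c lie in the block of 24 core histone genes from Hist1h4h to Hist1h3a (chr13:23531050-23762386), and 22 of these were tested in the H1 fit, with 0 called and a median log2 fold change of 0.16. The 19 tested members within 25 kb of a deleted gene had a median of 0.05, beside 0.35 for the 17 other tested Hist1 genes. Of the nearest neighbours, Hist1h3e, an H3 gene 848 bases from Hist1h1d, was measured at 0.936 and 1.81 CPM in TKO and 0.837 and 1.84 CPM in control libraries. Hist1h4f, an H4 gene 1614 bases away on the other side, was measured at 0.525 and 1.05 CPM against 0.624 and 0.563 CPM. Hist1h3c, 4606 bases from Hist1h1c, was measured at 2.88 and 3.66 CPM against 1.84 and 2.99 CPM. In all 3 the groups overlapped.

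The other neighbours lie farther away or overlap. Hist1h4c, 40354 bases from Hist1h1c, was measured at 0.548 and 0.488 CPM in TKO against 0.657 and 1.09 CPM in control libraries. Hist1h2ac, 58909 bases from Hist1h1e, was measured at 0.274 and 0.244 CPM against 0.0985 and 0.0776 CPM. Hist1h2be, an H2B gene whose annotation overlaps that of Hist1h1e on the same strand, was measured at 0.731 and 0.946 CPM against 0.279 and 0.272 CPM. For Hist1h2ac and Hist1h2be both TKO libraries lay above both controls and for Hist1h4c both lay below, but none of the 3 passed the test.

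**Figure D5:**
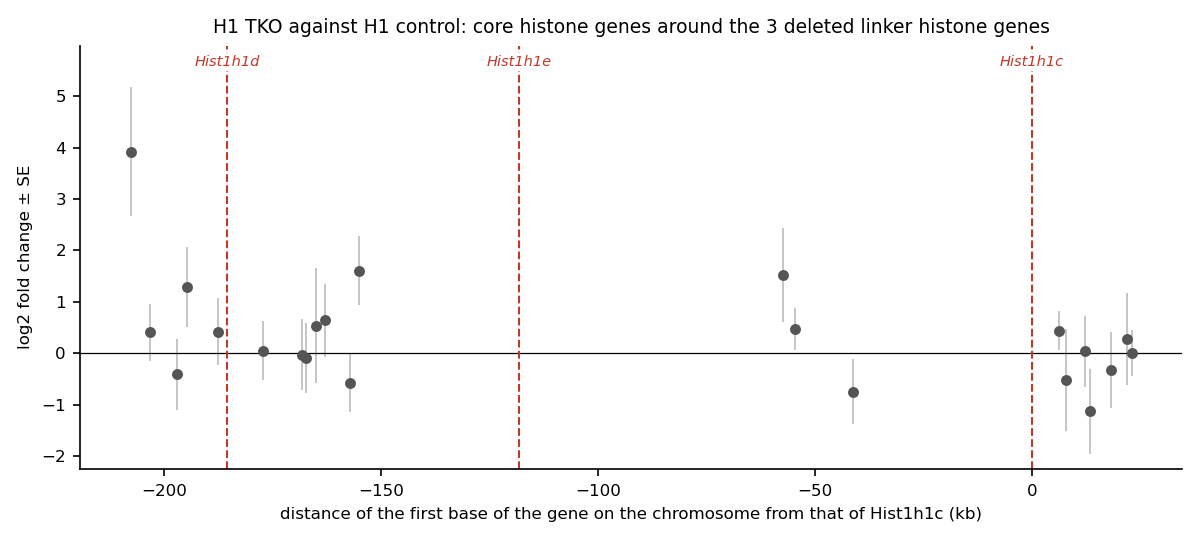
Log2 fold change in H1 TKO against H1 control (vertical axis, with its SE as bars) of the 22 tested core histone genes around the deleted linker histone genes, by distance along the chromosome from Hist1h1c (kb, horizontal axis). Dashed lines mark the 3 deleted genes, and none of the points passed an adjusted p of 0.05.

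The H1 control libraries differed from each other in core histone level. H1 control library 1 was higher than control library 2 in 11 of 44 tested members, with a median ratio of 0.5205, against 46.5% and 0.954 for all genes tested. The TKO libraries lay between the controls in summed level for H2B, H3 and H4, at 13.5 and 17.5 CPM against 13.1 and 23.9 CPM for H2B. For H3 they were at 12.5 and 12.96 CPM against 6.68 and 14.2 CPM, and for H4 at 5.68 and 6.31 CPM against 4.48 and 8.26 CPM. H2A genes were at 9.02 and 9.59 CPM against 3.97 and 9.31 CPM. Without control library 1, 3 members were higher and 2 lower of 45 tested, beside 23.4% and 22.8% of all genes, and the median was -0.35. Without control library 2, 3 were higher and 0 lower of 47, beside 25.8% and 26.1%, and the median was 0.73. Hist3h2a and Hist3h2ba were called in both of these fits.

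Hist2h2bb, the most abundant member in the H1 libraries, lay farther apart in the controls than in TKO. It was measured at 4.31 and 6.13 CPM in the TKO libraries and at 5.93 and 11.4 CPM in the controls, so that the groups overlapped (log2 fold change -0.72 ± 0.37, SE, adjusted p = 0.2301, edgeR). Without control library 1 it was called lower at -1.11 (adjusted p = 1.42e-06), and without control library 2 its log2 fold change was -0.18.

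The difference between the Ubc9 and H1 effects was tested in 1 fit of all 8 libraries. An unadjusted p below 0.05 in edgeR was found for 3 members, and no share of all genes is given beside this count. Of 50 core histone genes tested, 0 had a higher and 1 a lower effect in the Ubc9 comparison, beside 8.08% and 6.43% of all 16974 genes. DESeq2 also gave 0 higher and 1 lower, beside 1424 and 1650 of all 17631 genes. The gene was Hist3h2a, with a difference of -1.92 ± 0.49 on the log2 scale (Ubc9 minus H1, SE, adjusted p = 0.0257, edgeR). None of the 4 genes that fell after Ubc9 depletion passed this test as fitted on all libraries with the filter. Hist2h2bb had log2 fold changes of -1.03 and -0.72 in the Ubc9 and H1 comparisons. For Hist1h2af, which did not pass the filter in the H1 fit, the difference was -2.07 ± 0.97 (SE, adjusted p = 0.179, edgeR). It was called lower with no filter (adjusted p = 0.00482), with the replicate block (0.00594) and without Ubc9 control library 1 or 2, H1 TKO library 2 or H1 control library 1. It was 0.13 (adjusted p = 0.9999) without H1 TKO library 1, which held 14 of its counts in the H1 libraries.

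Genes that make, trim and degrade histone mRNA were given by lists. Of 34 genes for histone mRNA transcription and 3′ processing, 0 were higher and 12 lower after Ubc9 depletion, with a median log2 fold change of -0.22, beside 15.0% of all genes called lower and a median of 0.06. Among the 12 were Slbp, which binds the stem-loop, at 107 and 98.7 CPM in depleted against 144 and 156 CPM in control libraries (log2 fold change -0.55 ± 0.12, SE, adjusted p = 0.000837, edgeR). Ccne1, the cyclin that with Cdk2 drives entry into S phase, was measured at 64.9 and 68.5 CPM against 133 and 137 CPM (-1.02 ± 0.12). Pcf11, a factor of polyadenylation, was measured at 144 and 162 CPM against 241 and 275 CPM, and the E2F factors E2f3 and E2f2 fell by 0.61 and 0.58 on the log2 scale. Of 20 genes for histone mRNA decay, 0 were higher and 6 lower, among them Eri1, the exonuclease that trims the stem-loop, at 75.1 and 73.2 CPM against 98.9 and 101 CPM, Dcp2, a decapping enzyme, Upf1, a helicase of decay, and Papd7. Of 24 genes of DNA replication 0 were higher and 14 lower, including Rrm2, a subunit of ribonucleotide reductase, at 118 and 130 CPM against 216 and 233 CPM, and Cdc6 and Cdc45, which act in origin licensing and firing. Ccne1 is in both the first and the last of these lists. Without Ubc9-depleted library 1 the counts of lower genes in these lists were 10, 6 and 13, with 0 higher in each, beside 15.3% of all genes lower and 19.0% higher. Without depleted library 2 they were 25, 14 and 21, again with 0 higher, beside 22.9% of all genes lower and 41.8% higher.

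In H1 TKO the same lists had 0 higher and 1 lower of 34, 0 and 3 of 20, and 0 and 2 of 24. Ccne1 was measured at 100 and 94.2 CPM in TKO against 165 and 199 CPM in control libraries, and was the 1 lower gene of the processing list. The 3 lower decay genes were Lsm3, Lsm6 and Papd5, of which Lsm3 was measured at 143 and 166 CPM against 401 and 416 CPM. Mcm2, part of the replicative helicase, and Ccne1 were the 2 lower replication genes. These shares stand beside 8.43% of all genes called lower. Without H1 control library 1 these lists had 6 higher and 7 lower, 2 and 11, and 2 and 8, beside 23.4% of all genes higher and 22.8% lower. Without control library 2 they had 5 and 11, 5 and 10, and 4 and 8, beside 25.8% and 26.1% of all genes.

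Replication-independent variants and linker histones were counted beside the core genes, and their counts stand beside 21.1% of all genes higher and 15.0% lower after Ubc9 depletion and 8.59% and 8.43% in H1 TKO. Of 10 variants tested after Ubc9 depletion, 1 was higher (H2afj, 23.6 and 24.9 against 18.6 and 17.8 CPM) and 1 lower (H2afy, which encodes macroH2A1, 152 and 180 against 245 and 243 CPM). In H1 TKO, 1 was higher and 2 lower of 10. H2bfm, an H2B variant, was measured at 2.56 CPM in each TKO library and 0.0164 and 0.0582 CPM in the controls, and H2afy2, which encodes macroH2A2, at 8.90 and 8.89 CPM against 40.8 and 41.01 CPM. Of 8 linker histone genes tested after Ubc9 depletion, 1 (H1fx) was higher and 3 lower, the latter being Hist1h1a, Hist1h1b and Hist1h1d, which like the core genes belong to the Hist1 cluster. In H1 TKO 2 (H1f0 and Hist1h1t) were higher and 3, the deleted genes, lower. H1f0, a linker histone gene outside the Hist1 cluster, rose from 41.9 and 55.9 CPM to 402 and 432 CPM.

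Markers of fibroblasts, a common feeder layer of stem cell cultures, were higher after Ubc9 depletion. Of 9 tested, 6 were higher, Dcn, Col1a2, Postn and Col3a1 by most, and 0 lower, beside 21.1% and 15.0% of all genes, and the summed level of the 10 listed genes was 46.0 and 40.7 CPM in the depleted libraries and 19.6 and 18.7 CPM in the controls. None of the 10 was at 0 in all 4 Ubc9 libraries, and without depleted library 1 the count was 8 higher of 9, beside 19.0% of all genes. In the H1 experiment the sum was 7.94 and 8.16 CPM in TKO and 11.4 and 16.7 CPM in control libraries, with Postn at 0 in all 4, and 1 of 4 tested, Fbln2, was lower. Their part in the core histone values was not tested.

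Members were also grouped by 3′ end and by shared sequence. The counts stand beside 21.1% of all genes called higher and 15.0% lower after Ubc9 depletion, and 8.59% and 8.43% in H1 TKO. The median log2 fold changes of all genes tested were 0.06 and -0.02. After Ubc9 depletion, members with the stem-loop alone had a median log2 fold change of 0.08 (21 tested, 2 higher and 1 lower) and those with both elements 0.64 (13 tested, 0 called). The 2 tested members with a polyA signal alone had a median of 0.60, and 1 of them, Hist1h2bc, was higher. The members whose annotation was too short to search had a median of 0.10 (14 tested, 0 higher and 3 lower) and held 3 of the 4 genes that fell, Hist1h2af, Hist1h2bn and Hist2h2bb, so the end of these 3 is not known here. In H1 TKO the medians were 0.05 for the stem-loop alone (19 tested, 0 called) and 0.74 for both elements (12 tested, 2 higher), with -0.48 for the polyA signal alone (2 tested, 0 called) and 0.21 for those not searched (11 tested, 0 called). The median ratio of Ubc9-depleted library 1 to library 2 was 2.0 for members with the stem-loop alone and 3.59 for those with both. It was 2.0 for those with the polyA signal alone and 3.45 for those not searched. Members with under 50% of their windows shared had a median of 0.39 after Ubc9 depletion and those with at least 50% had 0.24, and in H1 TKO both were at 0.14. The lists of members are unequal in level, and these medians are descriptions only.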

How the data were processed

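Counts of reads per gene in 8 libraries, 4 per experiment, were used as deposited. The submitters' processing notes name cutadapt, STAR, HTSeq and DESeq2 with mm10, and per the labels RNA was selected on polyA beads. For versions, annotation, strand and reads that match several copies, the processing is not given in the sources used here. By library totals alone, without scaling for library composition, a count was worth 0.00973 to 0.0225 CPM.

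For each experiment a separate edgeR fit (version 4.0.16, R 4.3.3) used TMM factors and quasi-likelihood tests after filterByExpr (at least 10 counts, total of at least 15), with Benjamini-Hochberg adjustment over all genes tested at 0.05. CPM uses TMM-scaled library sizes, and SE is the log2 fold change divided by the root of F. The difference between effects was fitted on all 8 libraries. The code was tested on simulated counts. Alternatives were DESeq2 1.42.0, RLE factors, library totals, no filter, 1 fit of all 8 libraries, a replicate block and leaving out each library. Coordinates and 3′ ends come from GENCODE M21 (GRCm38) and promoters from RefSeq GRCm38.p6, both of which matched all 62 genes.

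The members, the 7 gene lists and the tests were chosen with earlier results of these data known. Named members passed a test, were among the 2 highest per kb of their type, belong to Hist3 or Hist4, are germ-cell members or neighbour a deleted gene. Of each list, up to 4 passing genes with the largest changes were named. Slbp, Hist1h4h, H1f0 and list counts without a library were added after values were seen. The check of the depleted gene is not reported here.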

Additional observations from a re-analysis of the deposited data

Results flagged for a closer look

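Hist3h2a was the core histone gene whose effect differed between the experiments by the test of the difference itself. The difference of its log2 fold changes, Ubc9 minus H1, was -1.92 (SE 0.49, adjusted p = 0.0257, edgeR quasi-likelihood test over all 8 libraries). In the Ubc9 libraries it was measured at 4.36 and 3.35 CPM in depleted and 2.65 and 2.30 CPM in control cells, and in the H1 libraries at 2.33 and 2.64 CPM in TKO and 0.4597 and 0.388 CPM in control cells, so it was higher in both perturbed libraries of each experiment. Over the alternatives the difference ranged from -2.11 to -1.61 and the adjusted p from 0.00265 to 0.134, and it missed the threshold with library totals alone (0.0711) and when H1 TKO library 2 (0.0678), library 2 of the depleted cells (0.0652) or either Ubc9 control (0.134 and 0.0733) was left out. Line, kit and control differ between the experiments, and their parts in this difference cannot be told apart.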

How the results depend on the processing

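With 2 libraries per group, single libraries set most counts of core histone genes. Leaving out each library in turn, the Ubc9 comparison gave 0 to 28 members higher and 4 to 14 lower with a median log2 fold change of -0.53 to 0.76, the H1 comparison 0 to 3 higher and 0 to 2 lower with a median of -0.35 to 0.73, and the difference between effects 0 to 4 higher and 0 to 8 lower. In the Ubc9 comparison library totals alone, the replicate block, DESeq2 and 1 fit of all 8 libraries each left 1 member higher, and the 8-library fit left 1 lower (Hist1h2af). Of all genes these settings called, in the same order, 3983 of 16499, 3160 of 16499, 2759 of 18990 and 1100 of 16974 higher. The 8-library fit called 483 of all genes lower. In the H1 comparison the 8-library fit gave 1 lower (Hist1h2bn), beside 2158 of all 16974 genes. For the difference between effects the count of lower genes was 0 with library totals and 2 with no filter and 2 with the replicate block, Hist1h2af being the gene added. Of all genes, 635 of 16974, 1325 of 23573 and 1318 of 16974 were lower in these settings. The block gave 1 higher and 6 lower in the Ubc9 comparison and 3 higher and 0 lower in the H1 comparison, and as same-numbered libraries did not deviate together (correlations of 0.0174 and 0.0565) the numbers were not taken as pairs. Log2 fold changes changed sign for Hist1h2bg (-0.80 to 0.0088), Hist1h4d (-1.40 to 0.13) and Hist1h3f (-6.46 to 6.94) when a library was left out. Hist1h2af kept its direction and its call in every alternative run (-1.38 to -1.10), while Hist1h2bn, Hist2h2bb and Hist1h2bb lost theirs in the 8-library fit (adjusted p = 0.086, 0.053 and 0.258). Library totals moved the median of all genes in the Ubc9 comparison from 0.06 to 0.25 and that of the tested members from 0.28 to 0.51, with 3983 genes higher and 1084 lower in place of 3479 and 2467. For the difference between effects they gave 1914 and 635 in place of 1372 and 1092. Among named members that did not pass, 26 of 169 alternative fits in the Ubc9 comparison and 17 of 200 in the H1 comparison had the opposite sign. At this depth 21 of the 50 members tested in the Ubc9 fit and 30 of the 44 in the H1 fit had a mean below 1 CPM. Large as well as small changes could be missed there. In H1 TKO, Hist1h4h was not called at a log2 fold change of 3.93 ± 1.26 (SE, adjusted p = 0.0755, edgeR). At such levels Hist3h2ba was called in the H1 fit, and Hist1h4c and Hist1h3f in the Ubc9 fit. In fits that leave 1 library in a group, that library is assumed to vary like the other group's. The causes of these changes were not tested.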
